A study of Homo sapiens with 6 samples.

Results

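The 10 genes described here make, control and break down the polyamines putrescine, spermidine and spermine. They were chosen by symbol, as the rows of the deposited count table whose Ensembl transcript ID belongs to ODC1, AMD1, SRM, SMS, SAT1, PAOX, SMOX, OAZ1, OAZ2 or AZIN1. Each gene had 1 row, so 10 of 22279 rows were described, and all 10 had enough counts to be tested. RNA was sequenced in 6 libraries of LNCaP, an established human prostate cancer cell line that carries the androgen receptor and grows in response to androgen. Cells with a short hairpin against RB (shRB, 3 libraries) were compared with cells with a control hairpin (shCON, 3 libraries), to ask which transcripts change when the retinoblastoma protein is lost in hormone-deficient conditions. Both groups had 72 h of a treatment that the labels name CDT and list under cell cycle arrest. The labels give 1 hairpin name per group, so loss of RB and any other property of that hairpin or cell population cannot be told apart. Nothing in them says that replicates were separate cultures, so the p-values rest on a spread between libraries that may be technical.

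Polyamines are small positively charged molecules that bind nucleic acids and are needed for growth. Ornithine decarboxylase (ODC1) makes putrescine, and S-adenosylmethionine decarboxylase (AMD1) supplies the aminopropyl groups that spermidine synthase (SRM) and spermine synthase (SMS) add to it. Antizymes (OAZ1, OAZ2) bind ornithine decarboxylase and send it to the proteasome, and the antizyme inhibitor AZIN1 takes antizyme away from it. Spermidine/spermine acetyltransferase (SAT1) marks polyamines for export or for oxidation by PAOX, while SMOX oxidizes spermine directly. Prostate epithelium is known for secreting large amounts of polyamines into seminal fluid. The flux through the pathway is set largely by translation and protein turnover, which counts of mRNA do not measure.

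The largest fall and the largest rise among the 10 genes were in SAT1 and SRM, and the 250 bases before the RefSeq start of each are shown because they differ in an E-box (CACGTG, the core sequence bound by MYC and MAX and related factors), given in capitals. The SAT1 window is chrX:23782923-23783172 on the plus strand and the SRM window chr1:11060019-11060268 on the minus strand, both in GRCh38.p14, each printed 5′ to 3′.
SAT1: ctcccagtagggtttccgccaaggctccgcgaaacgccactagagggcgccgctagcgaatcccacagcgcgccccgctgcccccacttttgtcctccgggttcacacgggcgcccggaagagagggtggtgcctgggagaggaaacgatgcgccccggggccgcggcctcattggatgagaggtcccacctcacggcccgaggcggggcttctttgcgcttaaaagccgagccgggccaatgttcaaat
SRM: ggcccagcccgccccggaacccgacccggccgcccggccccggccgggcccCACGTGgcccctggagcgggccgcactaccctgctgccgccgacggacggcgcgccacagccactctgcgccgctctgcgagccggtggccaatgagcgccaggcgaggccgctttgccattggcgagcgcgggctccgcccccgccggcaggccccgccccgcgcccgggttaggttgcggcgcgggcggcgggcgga
A CACGTG lay in the SRM window and in 6.34% of the 35116 RefSeq windows of the same length (a palindrome, so both strands are covered). Windows were found for 7 of the 10 genes, and for each the window whose start is nearest to that of the counted transcript was used. ODC1 had 2 windows and AMD1 had 3, of which the others entered only the share over all windows, and the ODC1 start used lies 177 bases from that of the counted transcript. The windows used for the other 6 genes held no CACGTG. None of the 7 windows used held TTTCGCGC or TTTGGCGC, forms of the site bound by E2F factors, on either strand; these occurred in 0.439% and 0.55% of all windows. The spelling TATGACTAA of the polyamine-responsive element was in none of the 7 and in 0.0826% of all windows. A match or its absence describes only these letters in this window. AZIN1, PAOX and SMOX had no window in the table used.

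Depth was 6115310 to 20091488 counts per shCON library and 9780579 to 10898768 per shRB library. RB1 mRNA, the target of the hairpin, was 54.7 ± 1.93 CPM (counts divided by library size after TMM normalization) in shCON and 5.02 ± 1.06 in shRB (SD, n = 3 each), so each library matched its label. The 8 prostate luminal markers checked were all detected, with summed levels of 4812 to 5076 CPM in shCON and 4486 to 4814 in shRB. The leukocyte, erythroid and basal marker lists summed to at most 0.638 CPM in any library, and the markers PTPRC, CD3E, HBA1, HBB and KRT5 were at 0 throughout. The 5 fibroblast and smooth muscle markers with a row summed to 41.7 to 49.2 CPM in shCON and 21.6 to 25.4 in shRB. VIM was the highest of them in shCON and COL1A1 in shRB, with COL1A2 at 0. Endothelial markers summed to 8.17 to 10.7 CPM in shCON and 1.73 to 3.71 in shRB, all of it VWF, with PECAM1 and CDH5 at 0. The part of these lower sums in the results was not tested. Libraries differed by base composition, shRB 2 most. Across 11674 genes, the GC content of a transcript and the departure of its level from the group mean correlated at 0.69 (Spearman) in shRB 2. This value was 0.53 in shCON 2, −0.51 in shCON 1, −0.51 in shRB 1, −0.54 in shRB 3 and −0.09 in shCON 3, and it serves as a description only.

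Of the 10 polyamine genes, 3 rose in shRB, 1 fell and 6 did not pass (edgeR, Benjamini-Hochberg adjusted p under 0.05 over all 11712 rows tested). The 3 that rose, ODC1, AMD1 and SRM, all act in synthesis, and the 1 that fell, SAT1, acts in breakdown. The background in the same comparison was 25.3% of all rows called, 12.8% higher and 12.5% lower. The median log2 fold change of the 10 genes was 0.10, beside −0.006 over all rows. The libraries of the 2 groups did not overlap for 5 of the 10 genes (ODC1, AMD1, SRM and SMS higher, SAT1 lower), while 41.1% of all rows had no overlap, 21.0% with shRB higher and 20.2% with shRB lower. The sizes were unequal: SAT1 changed 2.23-fold, and the 3 rises were 1.20-fold to 1.33-fold.

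**Figure D1:**
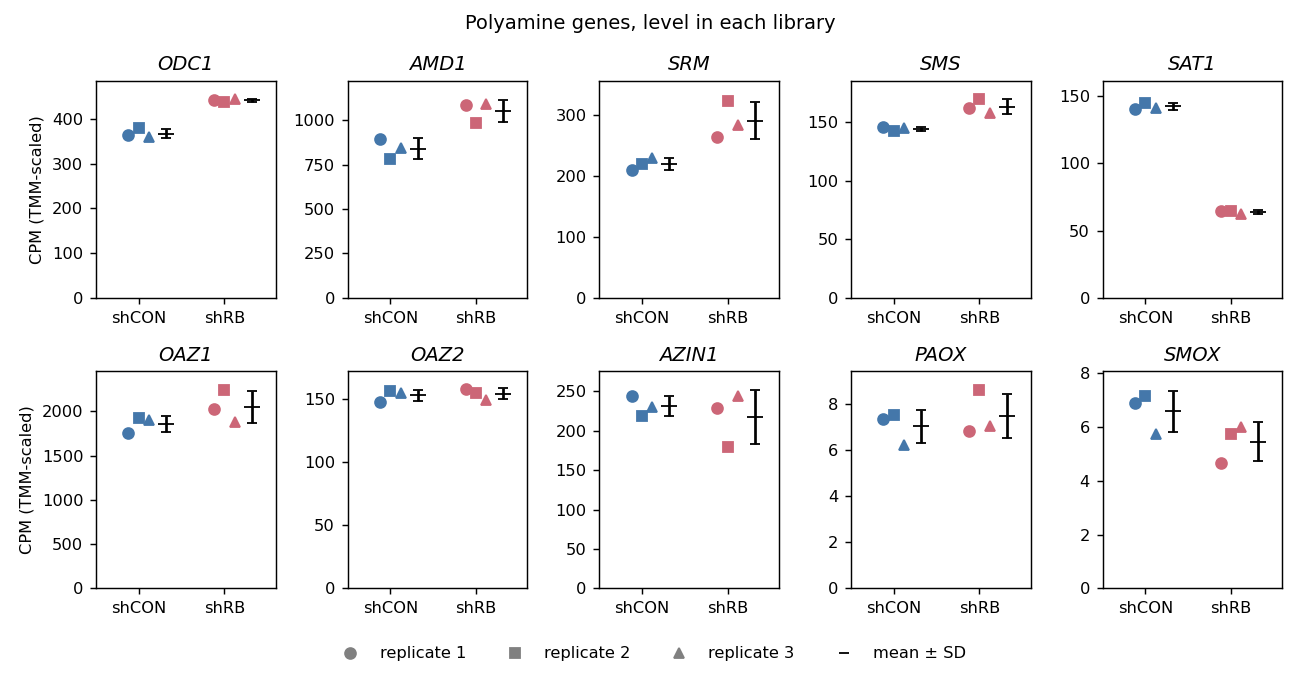
Level of each polyamine gene in CPM (TMM-scaled; y axis from 0, own scale per gene) in the shCON and shRB libraries, with replicates as separate symbols and the mean ± SD (n = 3) beside them. SAT1 sits near 140 CPM in every shCON library and near 64 in every shRB library, while OAZ2, AZIN1, PAOX, SMOX and OAZ1 overlap between groups.

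SAT1 showed the clearest difference. Its enzyme acetylates spermidine and spermine and is itself strongly induced when polyamines are abundant. SAT1 mRNA (ENST00000379270, chromosome X) read 140.6, 145.0 and 140.8 CPM in the shCON libraries and 64.5, 64.3 and 62.03 CPM in the shRB libraries. All 3 shRB libraries were thus far below the lowest shCON library, and the libraries within a group were close together. The means were 142.1 ± 2.45 and 63.6 ± 1.36 CPM (SD, n = 3 each), so 44.7% of the control level was left. The log2 fold change was −1.16 ± 0.07 (SE; 95% interval −1.32 to −1.004; edgeR adjusted p = 1.27e-07). By p-value SAT1 ranked 34 of the 11712 rows, and by size it was number 221 of the 1459 that fell. Only 2.43% of rows were called lower by at least 2-fold. In bulk RNA, fewer cells that express a gene and less of its RNA per cell cannot be told apart.

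The rows around SAT1 moved in both directions. The nearest 3 tested rows on each side on chromosome X had log2 fold changes from −0.32 to 0.52 (median 0.07), with 1 called higher and 1 lower. SMS, the spermine synthase gene, is the third tested row before SAT1 and was higher in each shRB library than in any shCON library. The exons of SAT1 overlap no other annotated gene, and no other gene had a stretch of 200 bases at 95% identity. The counted transcript holds 42.6% of the exon bases annotated for SAT1, so an isoform shift could move counts into or out of the row. Over the 18 alternative analyses, its log2 fold change stayed between −1.18 and −1.10, with an edgeR, DESeq2 or limma adjusted p of at most 6.93e-06.

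Among the synthesis genes, the first enzyme ODC1 (ENST00000234111, chromosome 2) read 363.2, 378.2 and 359.1 CPM in shCON and 441.7, 437.8 and 443.5 in shRB. The shRB libraries lay close together, and all were above shCON. The log2 fold change was 0.27 ± 0.07 (SE; 95% interval 0.12 to 0.41; edgeR adjusted p = 0.0103). Without shCON 1 the adjusted p was 0.0612 and without shCON 3 it was 0.0622, at log2 fold changes of 0.26 in both, so this call did not hold with either library left out.

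AMD1 (ENST00000368885, chromosome 6), whose enzyme commits S-adenosylmethionine to polyamine synthesis, read 893.9, 780.5 and 844.8 CPM in shCON and 1085, 982.3 and 1089 in shRB. Every shRB library was above every shCON library, and replicate 2 was the lowest in both groups. The log2 fold change was 0.33 ± 0.08 (SE; 95% interval 0.16 to 0.49; edgeR adjusted p = 0.00803). The AMD1 transcript has the lowest GC content of the 10 (37.99%), and with GC content modelled in each library the log2 fold change was 0.45. The call held in each alternative analysis, with edgeR adjusted p up to 0.0496 with 1 library left out. The counted transcript holds 48.9% of the exon bases annotated for AMD1, so an isoform shift could move counts here too.

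SRM (ENST00000376957, chromosome 1), which joins an aminopropyl group to putrescine to give spermidine, read 209.6, 218.8 and 230.2 CPM in shCON and 264.4, 323.6 and 284.0 in shRB. All shRB libraries were above shCON, with shRB 2 the highest. The log2 fold change was 0.41 ± 0.08 (SE; 95% interval 0.23 to 0.59; edgeR adjusted p = 0.00314). SRM has the highest GC content of the 10 transcripts (63.7%), and the library with the strongest positive GC correlation was also its highest. Without shRB 2 the log2 fold change was 0.33, with GC content modelled it was 0.41, and both passed.

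SMS (ENST00000404933, chromosome X), which converts spermidine to spermine, read 145.9, 142.4 and 144.9 CPM in shCON and 162.1, 170.1 and 158.1 in shRB. The groups did not overlap, but the difference was small: the log2 fold change was 0.18 ± 0.07 (SE; 95% interval 0.03 to 0.33) with an edgeR adjusted p of 0.0777, which missed the threshold. It passed with GC content modelled (0.24, edgeR adjusted p = 0.00262), where more rows were called: 2701 of all rows rose and 2000 fell, beside 1499 and 1459 in the main analysis. Parts of the SMS transcript are at least 95% identical over 200 bases or more to 2 other annotated genes without a row of their own in the table, so some reads may be shared. The ratio of SRM to SMS within a library, which does not depend on scaling, was 0.60 ± 0.07 on the log2 scale in shCON and 0.83 ± 0.11 in shRB (SD, n = 3 each). The ratio was higher in all shRB libraries (0.71, 0.93 and 0.85) than in any shCON library (0.52, 0.62 and 0.67). The transcripts differ in GC content (63.7% for SRM, 46.5% for SMS), and the ratio was highest in shRB 2. The part of GC content in this ratio was not tested.

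**Figure D2:**
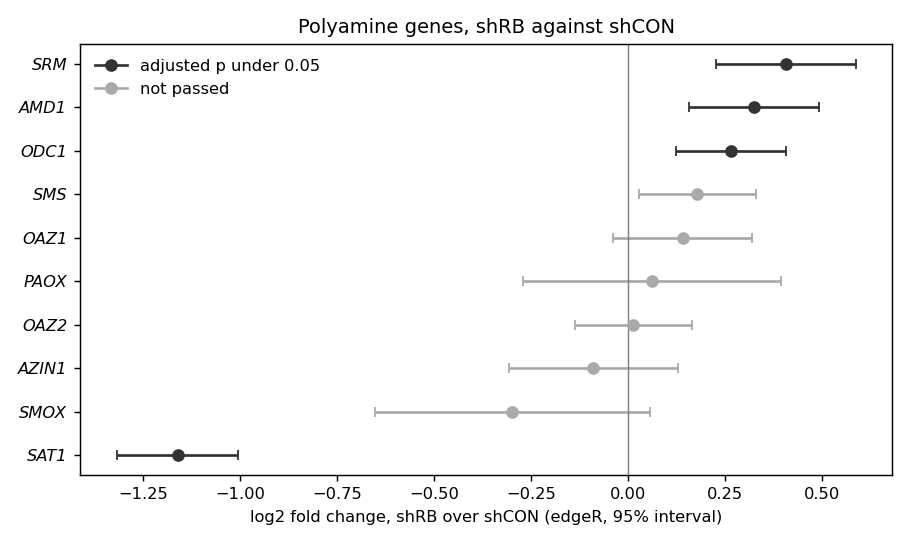
Log2 fold change of each polyamine gene, shRB over shCON, from edgeR with its 95% interval (x axis); dark points passed an adjusted p under 0.05. SRM, AMD1 and ODC1 lie right of 0, SAT1 lies at −1.16, and the other 6 genes did not pass.

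The antizyme genes and the antizyme inhibitor gave no call in either direction. OAZ1, the main antizyme (ENST00000602676, chromosome 19), read 1756, 1920 and 1902 CPM in shCON and 2029, 2245 and 1876 in shRB, with overlap between the groups. Its log2 fold change was 0.14 ± 0.08 (SE; 95% interval −0.04 to 0.32; edgeR adjusted p = 0.236). Its exons share 445 bases with the annotated genes AC005258.1 and JSRP1, the latter on the opposite strand, and the counting's use of strand is not given, so its count is uncertain to that extent. OAZ2, the second antizyme (ENST00000326005, chromosome 15), read 147.9, 156.4 and 155.2 CPM in shCON and 158.5, 155.0 and 149.9 in shRB. Its log2 fold change was 0.01 ± 0.07 (SE; 95% interval −0.14 to 0.16; edgeR adjusted p = 0.909). This interval overlaps those of ODC1 and AMD1 but not that of SRM, and differences between genes were not tested. The counted transcripts hold 33.4% of the annotated exon bases of OAZ1 and 25.2% of those of OAZ2. An isoform shift could thus move counts into or out of both rows.

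AZIN1 (ENST00000337198, chromosome 8), which resembles ornithine decarboxylase but has no decarboxylase activity, read 243.9, 219.2 and 230.7 CPM in shCON and 228.8, 179.2 and 244.3 in shRB. The shRB libraries spread widely, with shRB 2 the lowest of all 6 and shRB 3 the highest. The log2 fold change was −0.09 ± 0.10 (SE; 95% interval −0.31 to 0.13; edgeR adjusted p = 0.558), and without shRB 2 it was 0.04. The AZIN1 transcript has a GC content of 42.3%, and 344 of its bases overlap the antisense gene AZIN1-AS1. Reads of these genes cannot be told apart without strand. The low-GC genes AZIN1 and AMD1 were both below their group mean in shRB 2, by −0.27 and −0.10 on the log2 scale, while the high-GC genes SRM and PAOX were above it by 0.16 and 0.21. Not all genes followed this order: SAT1 (43.8% GC) was at 0.016 and SMS (46.5%) at 0.058. SMOX (61.1%) was at 0.080, OAZ1 at 0.13, OAZ2 at 0.0054 and ODC1 at −0.011.

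**Figure D3:**
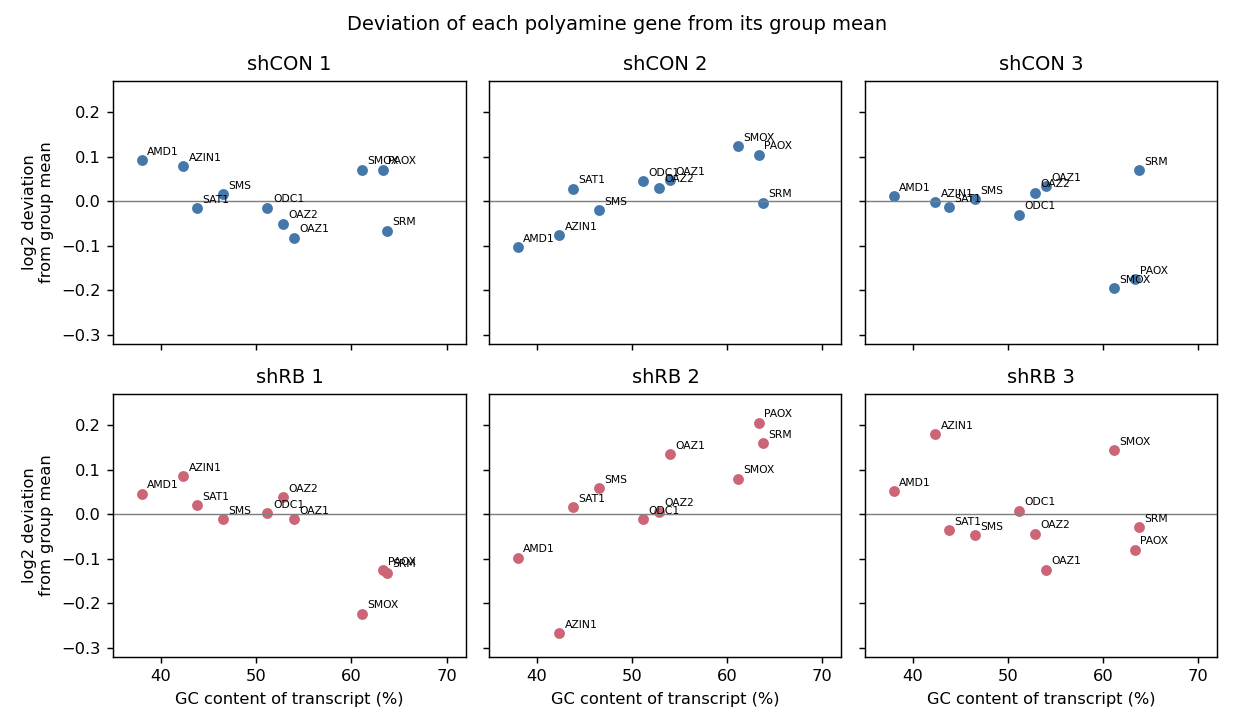
Log2 deviation of each polyamine gene from its own group mean (y axis) against the GC content of its counted transcript in percent (x axis), 1 panel per library. In shRB 2 AZIN1 lies at −0.27 and PAOX at 0.21, while SAT1 lies between −0.036 and 0.029 in every library.

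The oxidase genes were near the bottom of the measured range. PAOX, the peroxisomal oxidase of acetylated polyamines (ENST00000278060, chromosome 10), had 38 to 150 counts per library and read 7.36, 7.53 and 6.21 CPM in shCON and 6.83, 8.59 and 7.05 in shRB. Its log2 fold change was 0.06 ± 0.15 (SE; 95% interval −0.27 to 0.39; edgeR adjusted p = 0.804), and without shRB 2 it was −0.04. The exons of PAOX share 117 bases with the annotated gene AL360181.3. SMOX, which oxidizes spermine back to spermidine (ENST00000305958, chromosome 20), had 35 to 140 counts per library and read 6.87, 7.13 and 5.72 CPM in shCON and 4.64, 5.73 and 5.99 in shRB. Its log2 fold change was −0.30 ± 0.16 (SE; 95% interval −0.65 to 0.06; edgeR adjusted p = 0.205). The upper end of the PAOX interval and the lower end of the SMOX interval are larger in size than the AMD1 estimate, so the intervals do not exclude a rise of PAOX or a fall of SMOX of that size.

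Divided by transcript length, the 10 genes covered a wide range of levels. OAZ1 was highest at 1620 ± 78.5 CPM per kilobase in shCON, 6.63-fold above AMD1 at 244.3 ± 16.5 (SD, n = 3). SRM (173.4 ± 8.16 CPM per kilobase) came next, followed by ODC1 (138.3 ± 3.80) and SAT1 (133.5 ± 2.30), whose libraries overlapped. OAZ2 (79.2 ± 2.40 CPM per kilobase) and SMS (78.6 ± 1.00) also overlapped, and below them were AZIN1 (48.99 ± 2.62), PAOX (3.79 ± 0.39) and SMOX (2.94 ± 0.34). In shRB SAT1 dropped from rank 5 to rank 7, to 59.7 ± 1.28 CPM per kilobase, below SMS (88.96 ± 3.32) and OAZ2 (79.9 ± 2.25), and no neighbours in that order overlapped. SMS went from rank 7 to rank 5, and the other 8 genes held the same rank in both groups. These levels assume that reads came from the whole of the 1 counted transcript.

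Ratios within a library set the synthesis gene ODC1 beside its regulators and beside SAT1. The log2 ratio of ODC1 to SAT1 was 1.37 ± 0.02 in shCON and 2.79 ± 0.04 in shRB (SD, n = 3 each), a difference of 1.43. The 3 shCON libraries (1.37, 1.38 and 1.35) and the 3 shRB libraries (2.78, 2.77 and 2.84) were far apart. This ratio restates the rise of ODC1 and the larger fall of SAT1 given above and adds no separate result. The log2 ratio of ODC1 to OAZ1 was −2.34 ± 0.07 in shCON and −2.21 ± 0.14 in shRB, and that of AZIN1 to OAZ1 −3.01 ± 0.15 and −3.25 ± 0.36 (SD, n = 3 each). Both of these ratios overlapped between the groups. With 3 libraries against 3, the smallest exact permutation p (two-sided) is 0.1, so the ratios are descriptions.

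**Figure D4:**
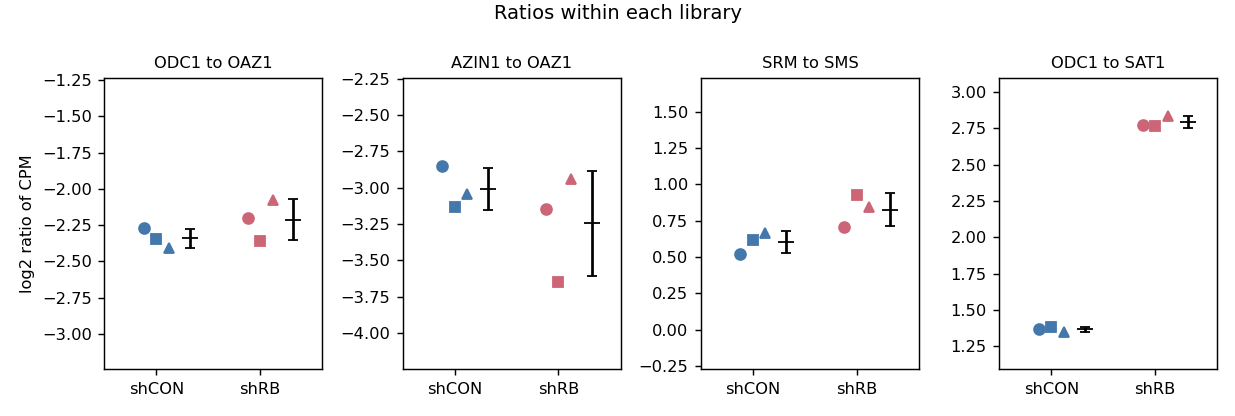
Log2 ratio of CPM between pairs of polyamine genes within each library (y axes, each spanning 2 log2 units), by group, with replicates as symbols (circle 1, square 2, triangle 3) and the mean ± SD (n = 3). ODC1 to SAT1 moves from 1.37 to 2.79 and SRM to SMS from 0.60 to 0.83 without overlap, while the 2 ratios to OAZ1 overlap.

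Outside these 10 genes, 7 lists of linked genes held 72 genes, of which 66 had a row, 56 were tested, 10 rose and 8 fell (32.1% called, beside 25.3% of all rows). Their median log2 fold change was 0.03, and no list had all its tested genes called. The shares over all rows, 12.8% higher and 12.5% lower, are the background for the counts of each list below. Levels of these genes are given as mean CPM ± SD over the 3 libraries of each group, shCON first. Among those that passed, MAT2A, EIF5A, GOT1 and MXI1 also share exon bases (558, 145, 651 and 205) with a gene on the opposite strand, so their counts carry the same uncertainty as that of OAZ1. ARG2 (904 bases, with VTI1B), DHPS (with WDR83 and AC010422.8), MTAP and MAX did not pass and share exon bases with other genes too. Their values are uncertain in the same way. With 1 library left out, the number that rose was 4 without shCON 1, 4 without shCON 3 and 6 without shRB 1, and the number that fell was 4 without shCON 3. With GC content modelled, 18 rose.

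Among 7 tested genes of other polyamine enzymes and regulators, 1 rose and 2 fell (median log2 fold change −0.13). AOC1, the diamine oxidase that degrades putrescine and histamine, read 33.6, 34.96 and 39.2 CPM in shCON and 3.55, 5.52 and 4.35 in shRB. Every shRB library was below every shCON library, and the log2 fold change was −3.004 ± 0.15 (SE; edgeR adjusted p = 2.05e-08), with no exon overlap with another gene. SAT2, a relative of SAT1 with another main substrate, was 95.7 ± 1.33 and 80.5 ± 7.26 CPM (edgeR adjusted p = 0.0408). SAT2 lost its call without any 1 library except shRB 2 (adjusted p of 0.109 to 0.152) and under DESeq2 (0.0669). OAZ3, an antizyme known from male germ cells, rose from 24.03 ± 1.06 to 31.2 ± 2.98 CPM (edgeR adjusted p = 0.0192), but not without shCON 1, shCON 3 or shRB 1 (0.0874, 0.0694 and 0.0531). The exons of OAZ3 share 360 bases with MRPL9, TDRKH and an antisense gene on the opposite strand, which leaves its count uncertain. ARG2, the mitochondrial arginase that supplies ornithine, was 188.6 ± 7.23 and 207.9 ± 1.84 CPM and did not pass.

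In the transport list 3 of 8 tested genes rose and 0 fell (median 0.21), while 12.8% of all rows rose and 12.5% fell. With so few genes these counts only describe the list. SLC22A3, an organic cation transporter, read 53.1, 53.3 and 50.97 CPM in shCON and 105.6, 102.8 and 103.7 in shRB, with no overlap. Its log2 fold change was 0.99 ± 0.08 (SE; edgeR adjusted p = 9.38e-07). SLC12A8, of the cation-chloride cotransporter family, rose from 38.7 ± 3.85 to 53.1 ± 1.32 CPM (edgeR adjusted p = 0.00341). SLC7A1, which imports arginine and ornithine, rose from 115.5 ± 7.77 to 135.1 ± 2.70 CPM (edgeR adjusted p = 0.0424), a call absent without shCON 1, shCON 3, shRB 1 or shRB 3 (0.189, 0.154, 0.109 and 0.101), under DESeq2 (0.0525), with upper quartile normalization or library totals only (0.0654 and 0.0548) and without a filter (0.0505).

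In ornithine and proline supply, 1 of 9 tested genes rose and ASL was the 1 that fell (median 0.14). ASL, the argininosuccinate lyase, was 49.6 ± 1.24 and 36.01 ± 4.47 CPM (edgeR adjusted p = 0.00477). The exons of ASL share 563 bases with the annotated gene AC068533.4. Of the hypusine pathway, which uses spermidine to modify the translation factor EIF5A, 1 of 5 rose and 0 fell (median 0.13). EIF5A was 567.6 ± 42.2 and 690.4 ± 99.4 CPM (edgeR adjusted p = 0.0483), and it lost its call without shCON 1, shCON 2 or shCON 3 (0.193, 0.0535 and 0.134), under limma-voom (0.0531) and with RLE or upper quartile normalization (0.0516 and 0.0616). EIF5A is near-identical to EIF5AL1, which has its own row, so reads may be split between them. The modifying enzymes DHPS and DOHH did not pass.

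The methionine genes moved in both directions. In the methionine cycle list 1 of 10 tested genes rose and 3 fell (median −0.07). AHCYL1, a relative of S-adenosylhomocysteine hydrolase, fell from 218.6 ± 7.76 to 176.6 ± 9.97 CPM (edgeR adjusted p = 0.00744, 0.0509 without shCON 3). CBS fell from 353.9 ± 21.6 to 290.6 ± 25.3 CPM (edgeR adjusted p = 0.0206, from 0.0648 to 0.099 without shCON 2, shCON 3, shRB 1 or shRB 3), and has a near-identical copy, CBSL, in the table. MAT2A, which makes the S-adenosylmethionine that AMD1 uses, rose from 120.9 ± 8.35 to 143.5 ± 9.59 CPM (edgeR adjusted p = 0.0414), and lost its call without any 1 library except shRB 2 (0.054 to 0.173) and with upper quartile normalization or library totals only (0.0652 and 0.071).

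In methionine salvage, which recycles the methylthioadenosine released by SRM and SMS, 1 of 7 rose and 1 fell (median −0.007). MRI1, the isomerase of that route, read 17.7, 16.3 and 17.8 CPM in shCON and 8.10, 9.02 and 8.41 in shRB. All shRB libraries were below shCON, and the log2 fold change was −1.02 ± 0.12 (SE; edgeR adjusted p = 5.66e-05). The exons of MRI1 share 1193 bases with C19orf53 and an antisense gene, so its count is uncertain. GOT1, an aspartate aminotransferase, rose from 101.1 ± 2.81 to 120.2 ± 2.43 CPM (edgeR adjusted p = 0.0204), but not without shCON 1, shCON 3 or shRB 1 (0.115, 0.0671 and 0.0581). MTAP, the first enzyme of salvage, was 36.9 ± 5.44 and 42.4 ± 4.79 CPM and did not pass.

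ODC1 and SRM are textbook targets of MYC, which was not analysed here. Of 10 tested genes of the MYC network, 2 rose and 1 fell (median −0.04). MLX, a MAX-like partner protein, rose from 110.5 ± 4.41 to 138.5 ± 5.49 CPM (edgeR adjusted p = 0.00579) and shares 770 exon bases with PSMC3IP on the opposite strand. MXI1, which opposes MYC by binding MAX, fell from 101.7 ± 6.10 to 80.01 ± 8.31 CPM (edgeR adjusted p = 0.0129), but not without shCON 1 or shCON 3 (0.0602 and 0.0734). MXD3 rose from 122.4 ± 4.63 to 149.6 ± 19.5 CPM (edgeR adjusted p = 0.0328), but not without shCON 1, shCON 2 or shCON 3 (0.129, 0.0776 and 0.0712), and it shares 1158 exon bases with PRELID1. MAX itself was 94.8 ± 4.05 and 95.7 ± 10.4 CPM and did not pass.

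**Figure D5:**
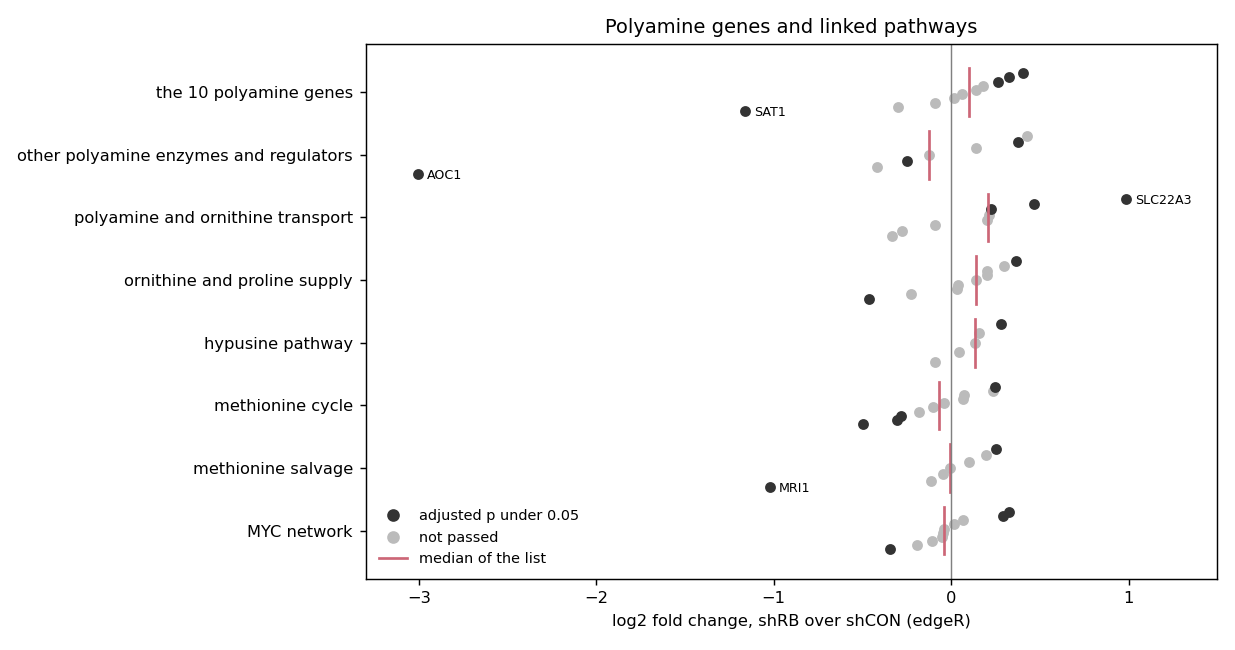
Log2 fold change, shRB over shCON, of every tested gene in the polyamine set and in 7 linked lists (x axis; edgeR), with dark points for an adjusted p under 0.05 and a line at the median of each list. The genes beyond 0.6 in size are AOC1 at −3.004, SAT1 at −1.16, MRI1 at −1.02 and SLC22A3 at 0.99, and the list medians lie between −0.13 and 0.21.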

How the data were processed

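Total RNA of 3 shCON and 3 shRB samples of LNCaP cells was sequenced after TruSeq library preparation, per the labels. The deposited table of the authors gives raw counts, whole numbers for each Ensembl transcript ID in each library, not normalized. The submitters' processing notes name STAR, HOMER, edgeR and hg19 but not which step used which. How reads were assigned to transcripts, with or without strand, is not given in the sources used here. By ID, 22182 of 22279 rows matched GENCODE release 29, used for names, chromosomes, overlaps, length and GC content; the 97 unmatched rows held 0.38% of counts and were kept. Promoter sequences came from RefSeq (GRCh38.p14), with motifs searched on both strands.

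Samples were grouped by title. Rows kept by filterByExpr (minimum count 10, minimum total 15) were normalized by TMM and tested with edgeR 4.0.16 in R 4.3.3 (glmQLFit, glmQLFTest, group only), with Benjamini-Hochberg adjustment over all rows and a threshold of 0.05. The SE is the log2 fold change divided by the square root of F. CPM is the count scaled to the TMM-adjusted total. The procedure was also run on simulated counts drawn independently for each library. These lacked the GC differences between the real libraries, so that run cannot speak to their effect. Pairs of replicates gave a chi-square per degree of freedom of at least 2.17, above sampling noise, so none was counted as a duplicate. Genes named were the 10 polyamine genes, RB1 and, in each other list, up to 4 genes with the smallest p among those that passed; ARG2, DHPS, DOHH, MTAP, MAX and the marker genes were named outside this rule, after their values were seen. A few genes under this rule are counted but not reported by name here. The 10 genes and the lists were chosen with earlier results of these data known. The 18 alternatives were DESeq2 1.42.0, limma-voom (limma 3.58.1), robust fitting, 3 normalizations, 2 filters, a replicate block, GC content as an offset (loess within each library), both together, the 20 most abundant rows left out, and each library left out.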

Additional observations from a re-analysis of the deposited data

How the results depend on the processing

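For the 10 polyamine genes, the number that rose was 2 to 4 and the number that fell was 1 in each of the 18 alternatives. ODC1 alone lost its call, without shCON 1 or shCON 3, and SMS alone gained one, with the replicate block (0.18, adjusted p = 0.0221), with GC content modelled and with both (0.24, adjusted p = 0.00124). Signs turned only among values near 0: AZIN1 to 0.038 (−0.18 to 0.038 with 1 library left out) and PAOX to −0.041 (−0.041 to 0.13) without shRB 2, and OAZ2 to −0.011 (upper quartile normalization), −0.0027 (library totals only) and as low as −0.013 with 1 library left out (−0.013 to 0.037). Over all rows, 1499 rose and 1459 fell in the main analysis. With the replicate block 2203 rose and 2294 fell, so more rows were called there too. With GC content modelled 2701 rose, and with the block and GC content together 2868 rose. With 1 library left out, 863 to 2074 rose (863 without shCON 1, 969 without shCON 3) and 912 to 1956 fell (912 and 964). In the linked lists, 10 rose and 8 fell; 18 rose with GC content modelled, 20 with the block and GC content together, and with 1 library left out 4 to 14 rose and 4 to 11 fell. The cause of these shifts was not tested. Each fit with 1 library left out has fewer samples, and the largest counts among them, 2074 and 1956, came without shRB 2. The log2 ratios between genes had 7 alternatives (1 CPM added, or 1 library left out). With 1 library left out, the shRB minus shCON difference was −0.39 to −0.037 for AZIN1 to OAZ1 (−0.24 with all libraries, −0.037 without shRB 2, −0.16 without shCON 1, −0.39 without shRB 3), 0.062 to 0.20 for ODC1 to OAZ1 (0.13, 0.062 without shRB 3, 0.20 without shRB 2), 0.17 to 0.28 for SRM to SMS (0.22) and 1.40 to 1.44 for ODC1 to SAT1 (1.43). Without division by length, AZIN1 ranked 4 (8 per length), ODC1 3 (4), SRM 5 (3) and SAT1 8 (5) in shCON.

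The labels give the groups the same replicate numbers but nothing that ties them. Deviations of same-numbered libraries correlated at 0.27, 0.39 and 0.002 for numbers 1 to 3, and those of shCON 1 and shRB 3 at 0.31. The GC correlations were −0.51, −0.51 and −0.54 in shCON 1, shRB 1 and shRB 3, and 0.53 and 0.69 in shCON 2 and shRB 2. The deviations therefore cannot show whether same-numbered libraries were handled together. The labels tie no pair, and the block was not used as the main design.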
